A study of Rattus norvegicus with 10 samples.

Results

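The genes described here are 10 genes of gluconeogenesis and of the hepatic response to insulin and glucagon: the glucagon receptor Gcgr, the insulin receptor Insr, the insulin receptor substrates Irs1 and Irs2, the transcriptional regulators Foxo1 and Ppargc1a, the gluconeogenic enzymes Pck1, Fbp1 and G6pc1, and the glycolytic enzyme Pklr. Members were chosen by name, and their probes were found through the accession that the array gives for each probe. Of the 10 genes, 9 had at least 1 probe, with 15 probes in all out of 40945 probes tested. No probe of Foxo1, the forkhead factor that insulin signalling keeps out of the nucleus, was matched, and Foxo1 was not analysed here. The brightest probe over all arrays stands for a gene, and the brightest probes of all 9 genes were well above background on all 10 arrays.

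Liver RNA came from male Wistar rats in 3 groups, 24 h after irradiation. The control group held 3 untreated rats (0 Gy), and the TBI group held 3 rats given total-body irradiation from a cobalt source. The MASM + TBI group held 4 rats that received MASM, a derivative of the plant alkaloid matrine, by stomach tube at 30 mg/kg a day for 3 days before the irradiation. The labels of the arrays give the dose as 6.5 Gy, while the article gives a different one. No group received MASM without irradiation, and neither the labels nor the methods state when the rats last fed. In the heat map of the study the arrays labelled here as control are bracketed as TBI and those labelled TBI as control, and the groups below follow the array labels. If the labels were the wrong way round, every difference between TBI and control rats below would change its sign, and MASM + TBI rats would have been compared with the other group in each case. T lymphocytes are known to be sensitive to radiation, and the summed level of 8 of their markers, on the linear scale, was 613 to 845 in the arrays labelled control, 346 to 533 in those labelled TBI and 256 to 461 in those labelled MASM + TBI. Of these markers 2 were detected on all arrays and 2 on no array.

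The liver makes glucose between meals and stores or burns it after them. Glucagon, acting through its receptor and cyclic AMP, raises transcription of the enzymes of gluconeogenesis, and insulin, acting through its receptor and the receptor substrates, lowers it. Pyruvate kinase of the liver, encoded by Pklr, runs the last step of glycolysis, opposite in direction to gluconeogenesis, and its gene is known to be induced by dietary carbohydrate.

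The bases before the start site of 3 members are shown because Pklr carries the clearest difference below and G6pc1 and Pck1 encode the regulated enzymes of glucose output. They are the 250 bases before the RefSeq start on build GRCr8, written 5′ to 3′ along the gene. Capitals mark matches, on either strand, to the motifs searched: CACGGG, which is part of a carbohydrate response element, TGTTTTG, which is the core of an insulin response sequence, and TGACG, which is part of a cyclic AMP response element.
Pklr, chr2:176841014-176841263, plus strand: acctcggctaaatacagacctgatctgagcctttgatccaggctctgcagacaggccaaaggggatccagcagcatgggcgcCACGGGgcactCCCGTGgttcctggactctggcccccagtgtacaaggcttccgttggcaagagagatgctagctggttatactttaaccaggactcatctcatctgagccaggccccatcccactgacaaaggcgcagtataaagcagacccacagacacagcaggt
G6pc1, chr10:86807409-86807658, plus strand: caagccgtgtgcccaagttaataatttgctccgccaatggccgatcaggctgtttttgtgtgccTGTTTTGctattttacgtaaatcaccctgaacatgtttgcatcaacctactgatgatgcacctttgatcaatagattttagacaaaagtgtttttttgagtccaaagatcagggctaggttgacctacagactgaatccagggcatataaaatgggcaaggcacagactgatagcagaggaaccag
Pck1, chr3:182348322-182348571, plus strand: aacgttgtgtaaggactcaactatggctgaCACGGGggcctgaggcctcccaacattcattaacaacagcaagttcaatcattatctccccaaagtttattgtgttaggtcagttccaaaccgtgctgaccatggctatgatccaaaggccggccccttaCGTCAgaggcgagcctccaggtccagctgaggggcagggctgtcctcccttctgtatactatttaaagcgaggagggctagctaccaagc
Pklr held CACGGG at bases -168 to -163 and again, on the other strand, at -157 to -152, the inverted pair that lies in the known carbohydrate response element of this gene. G6pc1 held TGTTTTG at -186 to -180, Pck1 held TGACG on the other strand at -90 to -86 and CACGGG at -220 to -215. Searched on both strands over the same length in 33469 RefSeq promoters, CACGGG occurred in 8.05%, TGTTTTG in 5.46% and TGACG in 18.2%. Among the other members the palindrome TGACGTCA, the full cyclic AMP response element that contains TGACG on both strands, occurred in Ppargc1a (1.59% of all promoters), and the forkhead letters TGTTTAC in Insr (3.21%). Insr also held CACGGG on the other strand at -42 to -37 and TGACG at -113 to -109, so that CACGGG occurred in 3 of the 9 members with a promoter in the table. CACGGG was added to the search after the expression data had been seen. A match describes the letters and not the binding of a factor, and Irs2 had no promoter in the table used.

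Each value below is the intensity of 1 probe on the log2 scale after quantile normalization between arrays, so a difference of 1 is a doubling. Probes differ in brightness for reasons unrelated to RNA level, and levels are therefore compared between rats and never between genes. Differences were tested with limma over all 10 arrays and their p-values adjusted by Benjamini-Hochberg across all 40945 probes. A probe was called at an adjusted p under 0.05, and calls at the threshold of the study (unadjusted p under 0.05 and a fold change of at least 1.5) are given beside it. The control arrays shared slide 1 with MASM + TBI rat 3, the TBI arrays filled slide 2, and the other MASM + TBI arrays lay on slide 3, so slide and group cannot be told apart in any comparison with TBI rats. Of all non-control spots, 57.2% to 59.9% were well above background on control arrays, 64.1% to 70.1% on TBI arrays and 56.2% to 60.2% on MASM + TBI arrays, and the part of this in the results was not tested. Each of 9 hepatocyte markers examined was detected on all arrays and 0 of 9 were called in any comparison. The summed linear level of 3 sinusoidal endothelial markers was 12631 to 15590 in control, 16716 to 20607 in TBI and 14629 to 18431 in MASM + TBI rats, with 0 called. In each comparison with control 1 of 6 stellate cell markers was called lower. The part of these cells in the results was not tested. In whole liver, fewer cells of a type and less RNA per cell cannot be told apart.

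In TBI rats the glycolytic gene Pklr and the glucagon receptor gene Gcgr were lower than in control rats, and no other member was called by its brightest probe. These were 2 of 9 members, both lower, against 5.63% of all probes called in this comparison. At the study's threshold the count was also 2 of 9, against 12.6% of all probes. The median log2 difference over the 9 members was -0.25, and over all probes it was -0.03. In MASM + TBI rats Pklr alone was called against control, 1 of 9 members against 2.99% of all probes, and at the study's threshold 2 of 9 were called, Pklr and Gcgr, against 8.06%. Between MASM + TBI and TBI rats limma called 0 of 9 members after adjustment, against 1.63% of all probes. In that comparison 1 member, G6pc1, had an unadjusted p under 0.05 and also passed the study's threshold, against 7.98% of all probes, and the t-test that the study names for its arrays (below, the study's t-test, run here as Welch's test) called 0 members at either threshold. Across the 3 groups the F test called 1 member, Pklr, against 5.65% of all probes. Both comparisons with control use the same 3 control rats and are therefore not independent of each other. After adjustment the study's t-test called 10 of 40945 probes in TBI against control rats and 40 in MASM + TBI against control rats. At the study's threshold, which has no adjustment, it called 2900 and 2354. Few probes of any kind passed its adjusted form, so a call lost with it below says little about a single gene.

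**Figure D1:**
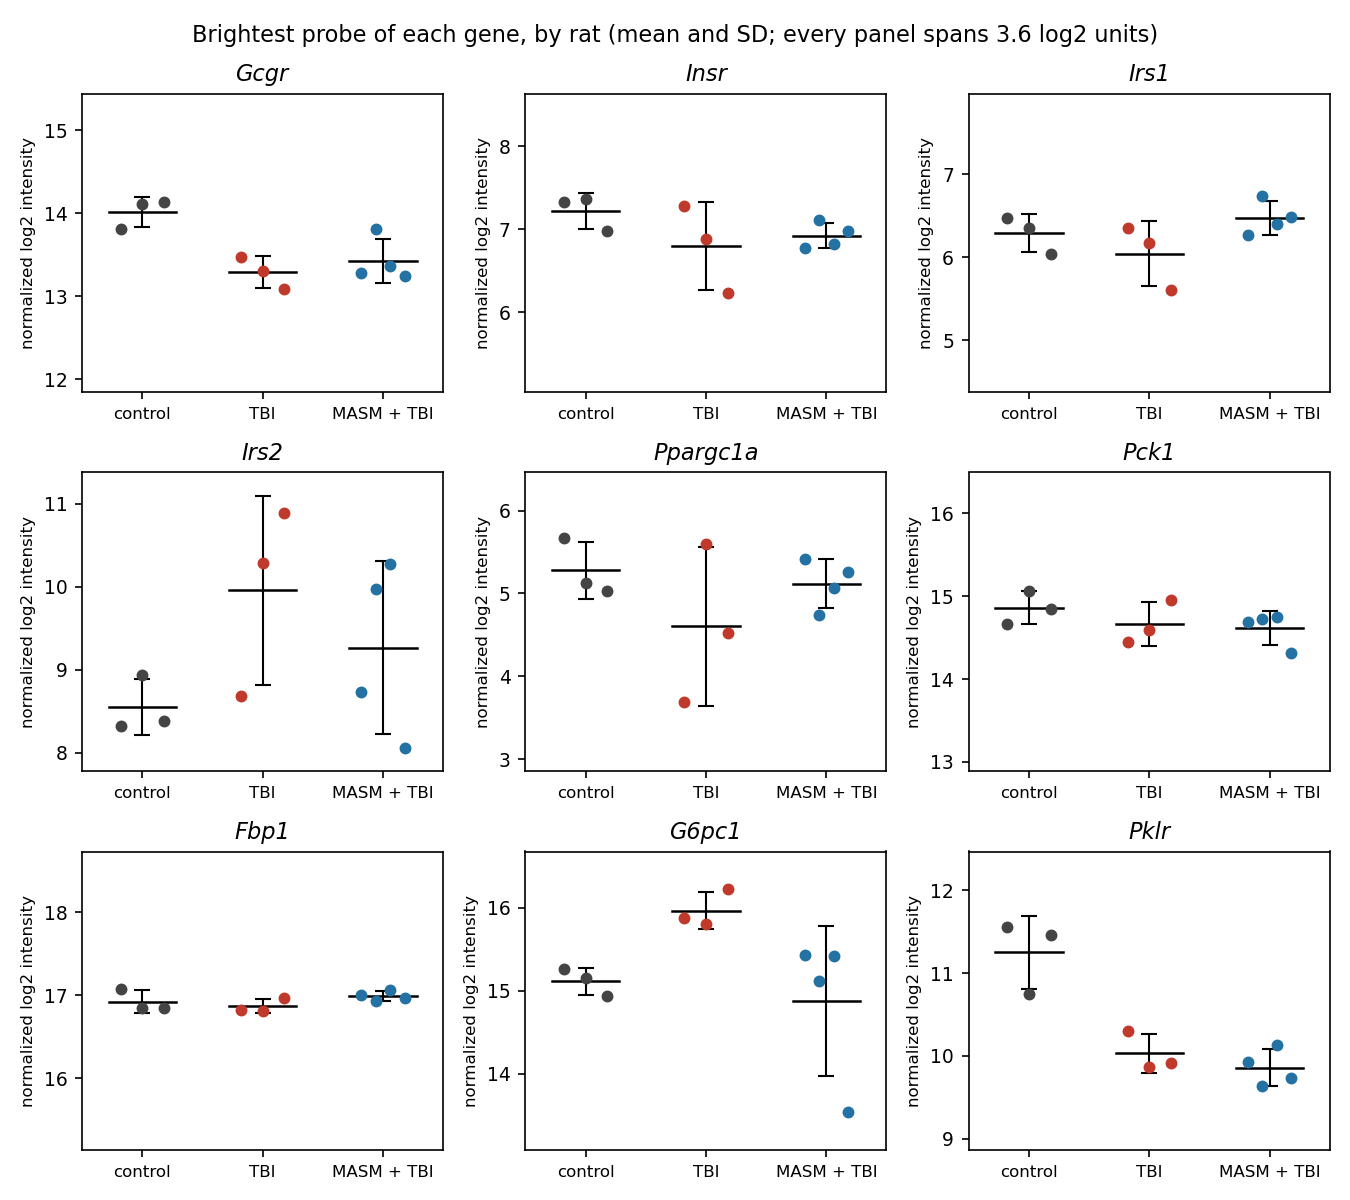
Normalized log2 intensity (vertical axis) of the brightest probe of the 9 measured members in each of 3 control, 3 TBI and 4 MASM + TBI rats. Points are rats, the long line is the group mean, the bars are 1 SD, and every panel spans the same range. Pklr lies lower in all irradiated rats than in any control rat, and MASM + TBI rat 4 lies far below the other rats in G6pc1.

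Pklr fell after irradiation, with or without MASM. Its log2 intensity was 11.55, 10.74 and 11.46 in the control rats, 10.31, 9.87 and 9.92 in the TBI rats, and 9.93, 9.64, 10.13 and 9.74 in the MASM + TBI rats. All 7 irradiated rats lay below the lowest control rat, and the irradiated groups overlapped each other. The difference between TBI and control was -1.22 (SE 0.23, limma adjusted p = 0.0248), a 2.33-fold lower intensity. Between MASM + TBI and control it was -1.39 (SE 0.22, limma adjusted p = 0.0165), or 2.62-fold lower. MASM + TBI and TBI rats differed by -0.17, with a 95% confidence interval of -0.67 to 0.33 (limma adjusted p = 0.738). The F test across groups gave an adjusted p of 0.0188 in limma. The MASM + TBI rat hybridised on the slide of the control rats lay 1.12 below the control mean (difference -1.12), and the other 3 MASM + TBI rats had a mean difference of -1.48. The call in TBI rats was lost without control rat 1 (-1.07, limma adjusted p = 0.0710), control rat 3 (-1.12, 0.0870), TBI rat 2 (-1.14, 0.0670) or TBI rat 3 (-1.16, 0.0508), and that in MASM + TBI rats without control rat 3 (-1.29, 0.0731) or MASM + TBI rat 4 (-1.35, 0.0504). The study's t-test called neither comparison (adjusted p = 0.270 and 0.250), and limma with TBI and control rats alone gave an adjusted p of 0.0779. Slide as a fixed block gave -1.12 for MASM + TBI, which is the same difference of MASM + TBI rat 3 from the control mean as above.

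Over the 10 arrays, the genes whose standardized pattern was most like that of Pklr, among 8437 genes well above background on every array, were Pc (root mean square difference 0.175), Fancc (0.243), Slc25a47 (0.266), Gpld1 (0.275) and Mcm7 (0.276). Pc encodes pyruvate carboxylase, the mitochondrial enzyme that opens gluconeogenesis from pyruvate, and Slc25a47 encodes a mitochondrial carrier of the liver. These genes were chosen for their likeness, which is given as a description.

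Among the receptors, Gcgr was lower in TBI rats. The probe of this receptor, through which hepatocytes sense glucagon, read 13.82, 14.11 and 14.14 in control rats, 13.48, 13.30 and 13.09 in TBI rats, and 13.28, 13.82, 13.36 and 13.25 in MASM + TBI rats. TBI rats lay below every control rat. In the MASM + TBI group 3 of 4 rats did so clearly, and rat 2 equalled the lowest control rat to 2 decimals. The difference between TBI and control was -0.73 (SE 0.18, limma adjusted p = 0.0499), or 1.66-fold lower, and that between MASM + TBI and control was -0.60 (SE 0.16, limma adjusted p = 0.102), or 1.51-fold lower. The first lies just inside the threshold. It was lost when any 1 of the 3 control rats, any 1 of the 3 TBI rats or MASM + TBI rat 1, 3 or 4 was left out (differences of -0.83 to -0.63, limma adjusted p 0.0583 to 0.150), and held without MASM + TBI rat 2 (limma adjusted p = 0.0287), whose absence also brought the difference between MASM + TBI and control to -0.73 with an adjusted p of 0.0442. It was also lost with the study's t-test (0.248), with TBI and control rats alone in the fit (0.0741) and with the replicate number as a block (-0.73, 0.0989). On the slide of the control rats, MASM + TBI rat 3 gave a difference of -0.66 and the other 3 rats a mean difference of -0.57.

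The insulin receptor Insr read 7.32, 7.36 and 6.97 in control rats, 7.28, 6.88 and 6.23 in TBI rats, and 6.77, 7.11, 6.83 and 6.98 in MASM + TBI rats. The 3 groups overlapped. Its difference from control was -0.42 in TBI rats (95% confidence interval -0.98 to 0.14, limma adjusted p = 0.340) and -0.30 in MASM + TBI rats (-0.82 to 0.22, 0.595). The value in TBI rats was -0.14 without TBI rat 3, -0.66 without TBI rat 1 and -0.20 after normexp background correction.

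The receptor substrates pass the signal of the insulin receptor to phosphatidylinositol 3-kinase, and in liver Irs2 is the one known to rise when insulin is low. Irs1 read 6.48, 6.36 and 6.04 in control rats, 6.36, 6.17 and 5.61 in TBI rats and 6.27, 6.75, 6.40 and 6.48 in MASM + TBI rats, on a probe printed on 10 spots whose SD within an array was 0.079 to 0.166. Groups overlapped and no comparison was called, the largest difference being 0.43 between MASM + TBI and TBI rats (95% confidence interval -0.03 to 0.88, limma adjusted p = 0.327). That difference of Irs1 was 0.21 without TBI rat 3 and 0.17 after normexp background correction.

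Irs2 was carried by 4 probes, which did not give the same call. On the brightest probe, A_44_P684795, it read 8.32, 8.94 and 8.39 in control rats, 8.69, 10.29 and 10.89 in TBI rats and 8.74, 9.98, 10.28 and 8.06 in MASM + TBI rats. TBI rat 1 and MASM + TBI rat 1 lay within the control range and MASM + TBI rat 4 below it, while the other 4 irradiated rats lay more than 1 unit above the highest control rat. The difference was 1.41 between TBI and control (SE 0.70, limma adjusted p = 0.264) and 0.72 between MASM + TBI and control (SE 0.65, limma adjusted p = 0.678). The first was 0.94 without TBI rat 3 and 2.04 without TBI rat 1, and the second 0.38 without MASM + TBI rat 3, 0.48 without rat 2 and 1.11 without rat 4, with no call in these fits. Slide as a fixed block gave 1.73 for the second, which is the difference of MASM + TBI rat 3 alone from the control mean. Probe A_44_P503503, also well above background on every array, read 4.87, 5.39 and 4.94 in control rats, 6.28, 5.85 and 5.86 in TBI rats and 5.71, 6.22, 5.48 and 5.79 in MASM + TBI rats. On this probe every irradiated rat lay above every control rat, with a difference of 0.93 between TBI and control (SE 0.22, limma adjusted p = 0.0489) and of 0.73 between MASM + TBI and control (SE 0.21, limma adjusted p = 0.108). Its call was lost when any 1 of the control rats, any 1 of the TBI rats or MASM + TBI rat 1 or 4 was left out (0.79 to 1.09, limma adjusted p 0.0539 to 0.144), and it was 0.25 (0.128) after normexp background correction. It was lost as well with the replicate number as a block (0.0931), with 2 groups in the fit (0.0794) and with the study's t-test (0.257). The remaining probes, A_44_P257518 and A_44_P400393, were well above background on 1 of 3 control arrays and 3 of 3 TBI arrays each, and on 3 and 1 of 4 MASM + TBI arrays, and limma called neither. Every TBI rat lay above every control rat on both, with differences of 1.21 and 1.05 (limma adjusted p = 0.435 and 0.124). Between MASM + TBI and control rats the differences were 0.14 and 0.70, with overlap. All 4 probes thus had a higher mean in TBI than in control rats.

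**Figure D2:**
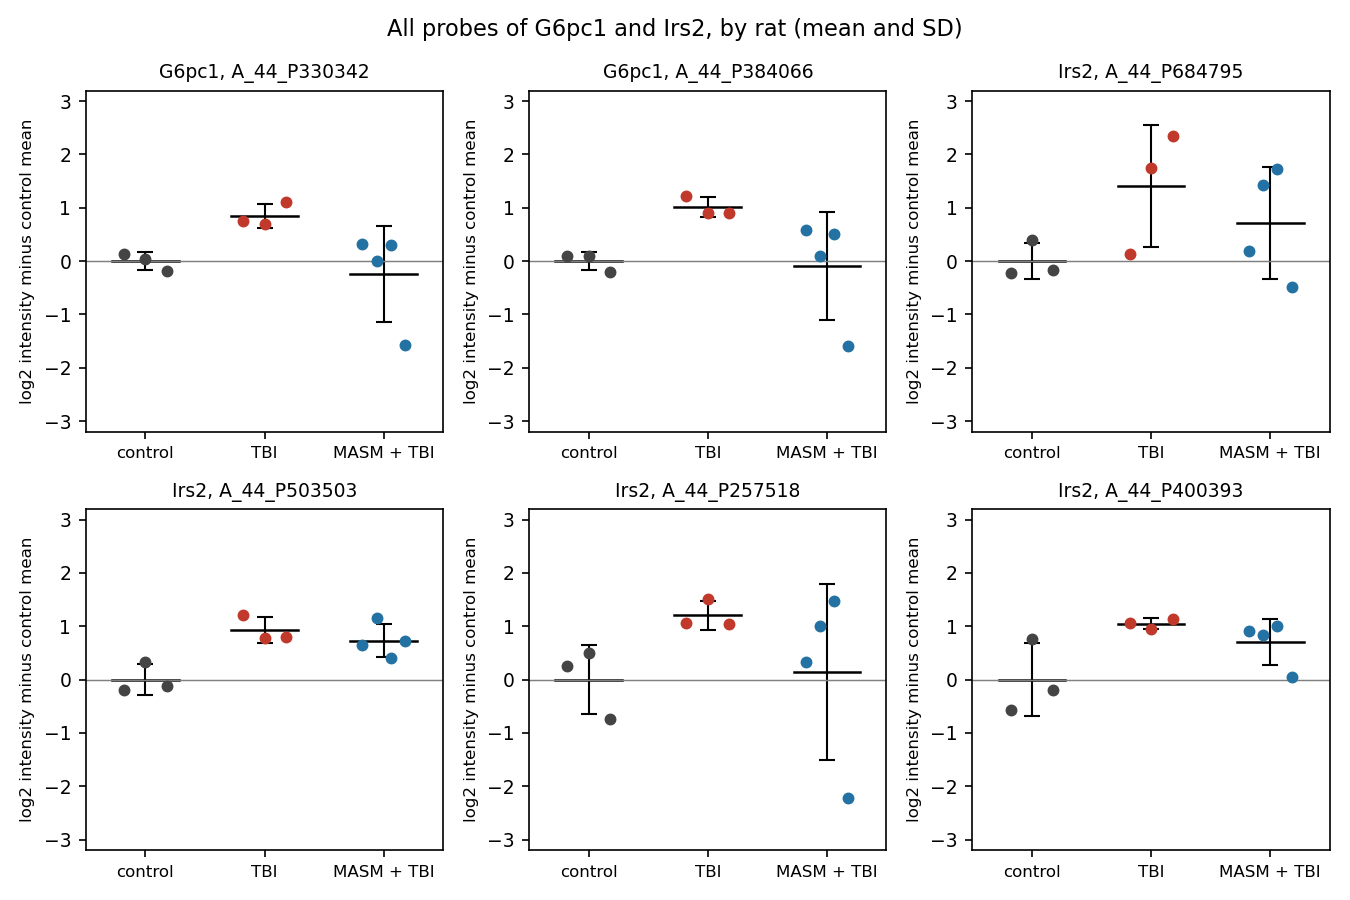
All probes of G6pc1 (2) and Irs2 (4), as log2 intensity minus the mean of the 3 control rats (vertical axis), in control, TBI and MASM + TBI rats. Points are rats and bars the mean and 1 SD. Both G6pc1 probes place MASM + TBI rat 4 lowest, and the Irs2 probes differ in their spread within groups.

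Ppargc1a, the coactivator that fasting and glucagon induce in liver to drive gluconeogenic genes, read 5.67, 5.13 and 5.03 in control rats, 3.69, 5.60 and 4.52 in TBI rats and 5.42, 4.74, 5.06 and 5.26 in MASM + TBI rats. The 3 TBI rats were spread widely, with rat 2 inside the control range and the other two below it. No comparison was called, and the difference between TBI and control was -0.68 with a 95% confidence interval of -1.67 to 0.31 (limma adjusted p = 0.389). That difference of Ppargc1a was -0.22 without TBI rat 1, -1.18 without TBI rat 2 and -0.088 after normexp background correction.

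The gluconeogenic enzymes Pck1 and Fbp1 were not called in any comparison. Pck1, the cytosolic phosphoenolpyruvate carboxykinase, read 14.67, 15.07 and 14.84 in control rats, 14.44, 14.59 and 14.96 in TBI rats and 14.69, 14.72, 14.75 and 14.31 in MASM + TBI rats. Its differences from control were -0.19 in TBI rats (95% confidence interval -0.60 to 0.21, limma adjusted p = 0.541) and -0.24 in MASM + TBI rats (-0.61 to 0.14, 0.537). The value in TBI rats was -0.08 without TBI rat 1, -0.09 without control rat 2 and -0.34 without TBI rat 3, and that in MASM + TBI rats was -0.14 without control rat 2 or MASM + TBI rat 4 and -0.057 with scaling to the 75th percentile. Groups overlapped on both of its probes. Fbp1, fructose-1,6-bisphosphatase, read 17.08, 16.85 and 16.84 in control rats, 16.83, 16.82 and 16.97 in TBI rats and 17.00, 16.93, 17.07 and 16.97 in MASM + TBI rats. Its intervals were the narrowest of the members, -0.26 to 0.16 for TBI and -0.13 to 0.26 for MASM + TBI against control, so a change of 1.5-fold lies outside both. Its second probe gave no call either.

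G6pc1, the catalytic subunit of glucose-6-phosphatase that releases free glucose in the last step of gluconeogenesis, had a higher mean in TBI than in control rats, a difference that did not pass the adjusted threshold. It read 15.25, 15.15 and 14.94 in control rats, 15.87, 15.80 and 16.22 in TBI rats, and 15.43, 15.12, 15.41 and 13.53 in MASM + TBI rats. Every TBI rat lay above every rat of both other groups, and MASM + TBI rat 4 lay more than 1 unit below all other rats. The difference between TBI and control was 0.85 (SE 0.46, 95% confidence interval -0.20 to 1.90, limma adjusted p = 0.305). Without MASM + TBI rat 4 the same difference, 0.85, had a limma adjusted p of 0.0273, the only call among 19 other settings. It was not called in other fits without that rat, with TBI and control rats alone (0.83, 0.0611) or with the replicate block (0.85, 0.0624), nor by the study's t-test (0.248). Between MASM + TBI and TBI rats the difference was -1.09 (SE 0.43, unadjusted p = 0.0330, limma adjusted p = 0.245), and -0.64 without rat 4 (limma adjusted p = 0.120). Against control, MASM + TBI rats differed by -0.24 (limma adjusted p = 0.898) and, without rat 4, by 0.21 (0.633). The second probe, A_44_P384066, gave 1.02, -1.12 and -0.10 in these 3 comparisons, with no call.

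**Figure D3:**
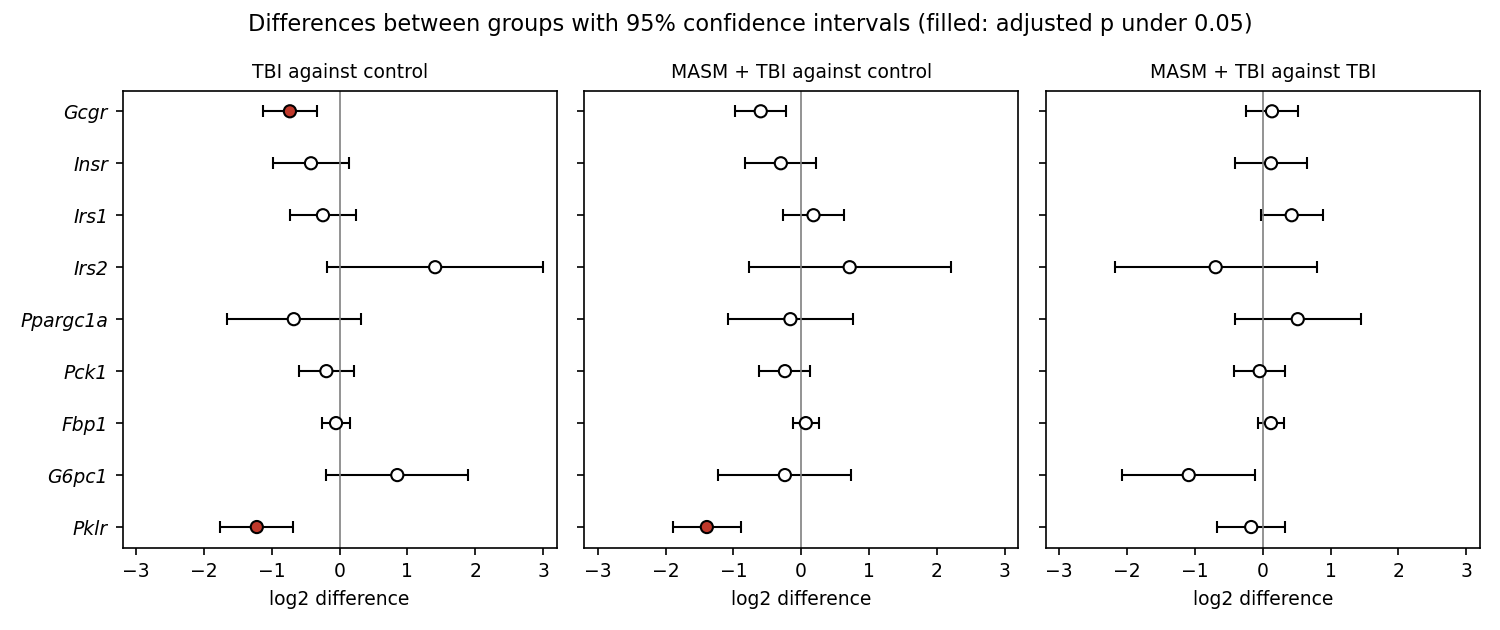
Log2 difference between groups (horizontal axis) of the 9 members in 3 comparisons, with 95% confidence intervals from limma. Filled points have an adjusted p under 0.05: Gcgr and Pklr in TBI against control rats and Pklr in MASM + TBI against control rats.

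Of the other genes of these pathways, 123 of 142 listed were measured. They comprised enzymes of gluconeogenesis and glycolysis, insulin signalling, glucagon and cyclic AMP signalling, transcription induced by insulin, glycogen metabolism and genes induced by fasting. In TBI against control rats 1 of 123 rose and 6 fell, beside 5.63% of all probes called, while at the study's threshold 14 were higher and 9 lower, beside 12.6%. In MASM + TBI against control rats 2 rose and 4 fell, beside 2.99%, and at the study's threshold 8 were higher and 9 lower, beside 8.06%. Between MASM + TBI and TBI rats limma called 0 after adjustment, beside 1.63%, and at the study's threshold 6 were lower and 0 higher, beside 7.98% of all probes past it in either direction. Of all genes with a symbol 232 were higher and 818 lower at that threshold in this comparison. The median log2 difference of the 123 pathway genes was -0.03, -0.05 and -0.04 in the 3 comparisons. In the last of them all 8 markers of Kupffer cells, the macrophages of the liver, had a lower mean in MASM + TBI rats (median -0.75), 5 of 8 past the study's threshold and 0 called after adjustment. Their summed linear level was 90434 to 139377 in control rats, 94779 to 174890 in TBI rats and 73215 to 94265 in MASM + TBI rats, all 8 were detected on each array, and their part in the results was not tested.

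Slc37a4, the transporter that carries glucose 6-phosphate to glucose-6-phosphatase, read 15.02, 14.83 and 14.88 in control rats, 14.06, 13.72 and 13.70 in TBI rats and 14.18, 14.15, 14.08 and 14.12 in MASM + TBI rats. It fell by 1.09 in TBI rats and by 0.78 in MASM + TBI rats (limma adjusted p = 0.00200 and 0.00727). Gpi, glucose-6-phosphate isomerase of glycolysis and gluconeogenesis, fell by 0.66 and 0.89 (limma adjusted p = 0.0110 and 0.00298). Ugp2, which makes the UDP-glucose of glycogen synthesis, fell by 1.45 and 0.89 (0.00664 and 0.0443). For Slc37a4 and Gpi in both comparisons, and Ugp2 in TBI rats, the call held with any 1 rat left out, but the study's t-test gave none of them (adjusted p = 0.230, 0.248 and 0.256 for Slc37a4, Gpi and Ugp2 in TBI rats, and 0.132 and 0.0689 for Slc37a4 and Gpi in MASM + TBI rats). Slc37a4 in MASM + TBI rats was also lost with scaling to the 75th percentile (limma adjusted p = 0.0821). With slide as a fixed block, which compares MASM + TBI rat 3 alone with the control rats, its difference was -0.83. Gpi was lost in TBI rats with 2 groups in the fit (0.0572) and in both comparisons with the replicate block (0.0573 and 0.0566). The call of Ugp2 in MASM + TBI rats held without control rat 3 and was lost without any other 1 rat (-0.94 to -0.76, limma adjusted p 0.0535 to 0.143). It was also lost with scaling to the 75th percentile (-0.74, limma adjusted p = 0.0973), 2 groups in the fit (0.0689) and the replicate block (-0.82, 0.146). The study's t-test gave an adjusted p of 0.330 for it.

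**Figure D4:**
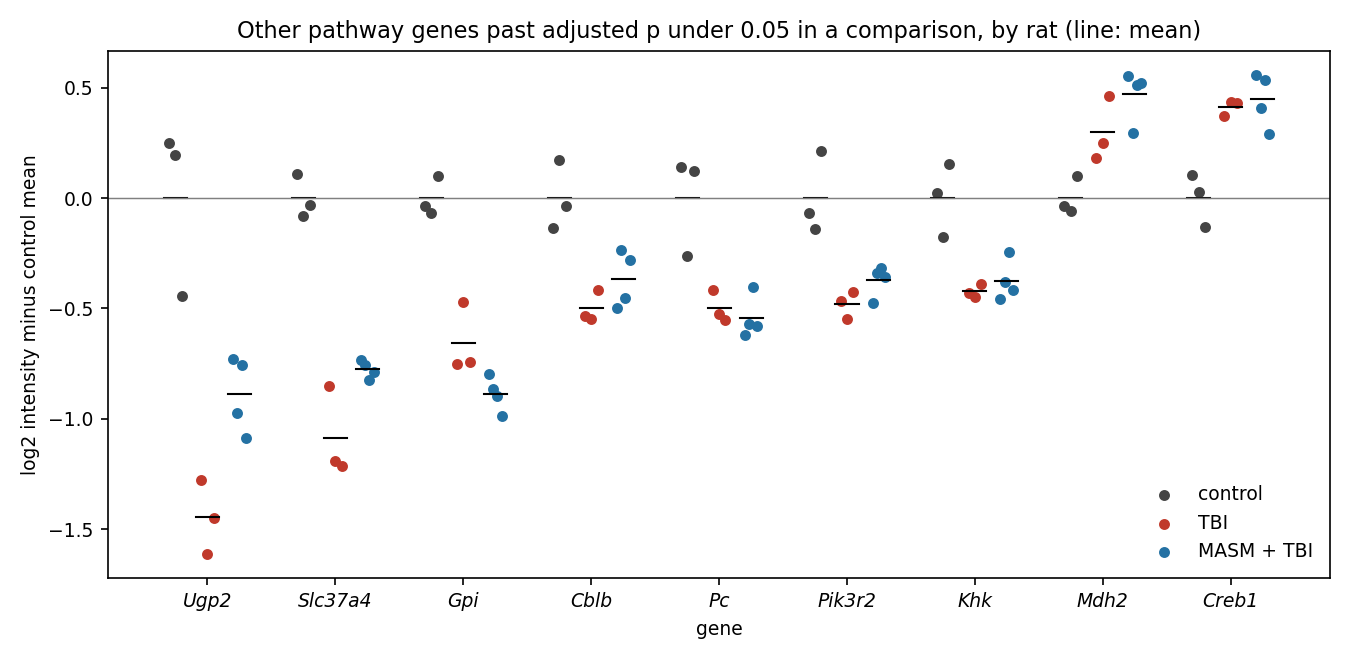
Log2 intensity minus the mean of the 3 control rats (vertical axis) for the 9 other pathway genes called in a comparison with control, in control, TBI and MASM + TBI rats. Points are rats and lines group means. Ugp2 and Slc37a4 lie lowest in TBI rats, and Creb1 and Mdh2 lie above the control mean in all irradiated rats.

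The remaining 6 called genes had smaller differences, and each call depended on single rats. In TBI rats the fructose kinase gene Khk (-0.42, limma adjusted p = 0.0477), Pik3r2, a regulatory subunit of phosphatidylinositol 3-kinase (-0.48, 0.0359), and the ubiquitin ligase gene Cblb (-0.50, 0.0381) were lower. Khk held without control rat 2 or MASM + TBI rat 3, Pik3r2 without control rat 2, TBI rat 3 or MASM + TBI rat 3, and Cblb without TBI rat 3 or MASM + TBI rat 2 or 3, while leaving out any other 1 rat raised each above the threshold (limma adjusted p up to 0.142, 0.0875 and 0.0985). Creb1, the cyclic AMP response factor, was higher in TBI rats (0.41, 0.0488) and in MASM + TBI rats (0.45, 0.0425), and held in the first without MASM + TBI rat 4 and in the second without TBI rat 3 or MASM + TBI rat 4, with an adjusted p of up to 0.148 and 0.149 without other rats. In MASM + TBI rats Pc was lower (-0.54, 0.0445) and Mdh2, mitochondrial malate dehydrogenase, higher (0.47, 0.0471). Pc held without control rat 2 or TBI rat 3, and Mdh2 without TBI rat 1 or 3 or MASM + TBI rat 2, with an adjusted p of up to 0.158 and 0.150 without other rats. The study's t-test and the replicate block called none of these 6 genes in the comparisons just given, and Creb1 in TBI rats was 0.17 (0.0827) after normexp background correction. With 2 groups in the fit all but Mdh2 lost their calls (limma adjusted p 0.0602 to 0.123). Scaling to the 75th percentile lost Khk (0.118), Creb1 in MASM + TBI rats (0.107), Pc (-0.37, 0.353) and Mdh2 (0.0511). The trended and robust prior lost Creb1 in both comparisons (0.0636 and 0.0507). Slide as a fixed block, which compares MASM + TBI rat 3 alone with the control rats, gave 0.54, -0.40 and 0.51 for Creb1, Pc and Mdh2.

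Igfbp1, which encodes a secreted binding protein of insulin-like growth factors, was picked from the list after its values had been seen, because insulin is known to lower its transcription. Igfbp1 read 10.68, 12.49 and 10.91 in control rats, 13.41, 14.09 and 14.35 in TBI rats and 13.81, 13.43, 14.41 and 10.28 in MASM + TBI rats. MASM + TBI rat 4, lowest in G6pc1 and on the brightest of the 4 Irs2 probes, was also the lowest rat in Igfbp1. The differences of Igfbp1 from control were 2.59 and 1.62 (limma adjusted p = 0.167 and 0.453), and without MASM + TBI rat 4 the former was 2.58 with a limma adjusted p of 0.0370 and the latter 2.52 (0.0698). That was the only call of Igfbp1 among 19 other settings for TBI rats, and there was none among 20 for MASM + TBI rats. The list it came from, insulin signalling and its inhibitors, had a median difference of -0.02 over 32 measured genes in TBI against control rats, with 0 that rose and 2 that fell.

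Periportal and pericentral hepatocytes differ in their share of glucose metabolism, and markers of both zones were examined. The summed linear level of 7 periportal markers, of which Pck1 is one, was 100121 to 113952 in control rats, 84332 to 99848 in TBI rats and 87180 to 100277 in MASM + TBI rats, and all 7 were detected on each array. That of 8 pericentral markers was 109805 to 115324, 109449 to 143937 and 129742 to 162716, and 7 of the 8 were detected on each array. The periportal sums of TBI rats lay below those of control rats and the pericentral sums of MASM + TBI rats above them, other pairs of groups overlapped, and none of the markers was called by limma after adjustment in a comparison. At the study's threshold 1 of 7 periportal markers was lower and of 8 pericentral markers 1 was higher and 1 lower in TBI against control rats, beside 12.6% of all probes. In MASM + TBI against control rats 1 periportal marker was lower and 2 pericentral markers were higher and 1 lower, beside 8.06%, and 0 of either zone passed between MASM + TBI and TBI rats. For all of these markers, the part in the differences of Pklr and Gcgr was not tested. The share of rising probes among adjusted calls depended on scaling, being 43.3% for TBI against control and 56.0% for MASM + TBI against TBI with quantile normalization and 24.3% and 82.4% with scaling to the 75th percentile. The calls in these 2 comparisons numbered 2305 and 666 with quantile normalization and 7458 and 5459 with scaling to the 75th percentile.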

How the data were processed

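Liver RNA of 10 rats was labelled with Cy3 and hybridised to 1 Agilent array per rat. Feature Extraction 10.7.3.1 gave the linear, background-subtracted intensity of every spot that the authors deposited, without normalization across arrays. The deposited table of processed values was identical to it. From 45018 spots, 1639 control spots and outlier spots were removed. The log2 intensities were quantile normalized and averaged per probe, which left 40945 of 41012 probes. Symbols came from accessions (114725 in the gene table), which named 16968 probes. A linear model with a mean per group was fitted with limma 3.58.1 in R 4.3.3 (prior degrees of freedom 1.43) and tested on simulated data. Nothing states separate cages or days beyond separate rats, and the number of arrays limits the precision. Plots were drawn with matplotlib 3.10.9 in Python 3.11.15.

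The members, lists and tests were chosen with earlier results of these data known. All members were named, and of the other pathway genes those with an adjusted p under 0.05 in any comparison, with Igfbp1 added after its values were seen. Other settings tried were scaling to the 75th percentile, normexp background correction (offset 50, on median pixel intensities because the files hold no means), leaving out dim probes, 2 groups in the fit, the study's t-test as Welch's test, a trended and robust prior, replicate number and slide as blocks, the mean of a gene's probes, and each rat left out in turn. Slide as a fixed block was fitted for MASM + TBI against control rats alone. Its estimate is the difference of MASM + TBI rat 3, on slide 1, from the control mean, so it rests on 1 rat.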

Additional observations from a re-analysis of the deposited data

Results flagged for a closer look

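Among 29 probes examined in the 4 MASM + TBI rats, 3 had 1 rat far from the other 3, where chance gives about 1 in 20. MASM + TBI rat 4 was low on the brightest probe of Pck1, its gap to the nearest rat being 0.857 of the range of the group. It was also low on the brightest probe of G6pc1, with a gap of 0.838 of the range. The second probes of Pck1 and G6pc1 also had rat 4 lowest in its group but were not flagged. MASM + TBI rat 2 was low in Mdh2, with a gap of 0.833 of the range. The part of a technical difference between these arrays was not tested. MASM + TBI rat 4 had 60.2% of spots well above background, the highest of its group.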

How the results depend on the processing

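The members called after adjustment in TBI against control rats, 2 in the reported fit, were 0 with 2 groups in the fit, 0 with the study's t-test and 1 with the replicate number as a block, and 0 to 2 with 1 rat left out. At the study's threshold they were 4 with the replicate block and 2 to 4 with 1 rat left out. Without MASM + TBI rat 4 the 2 called members were Pklr and G6pc1. In MASM + TBI against control rats the count of 1 became 0 with the study's t-test, 2 with slide as a random block, and 0 to 2 with 1 rat left out. At the study's threshold the count of 2 became 1 with scaling to the 75th percentile, 1 with normexp, 1 with slide as a random block, and 1 to 2 with 1 rat left out. In MASM + TBI against TBI rats the count at the study's threshold, 1, became 0 with 2 groups in the fit and 0 with the study's t-test, and 0 to 1 with 1 rat left out. The F test called 2 members without dim probes and 2 with slide as a random block, and 0 to 2 with 1 rat left out. With slide as a random block the correlation within slides was estimated at -0.13. A negative value makes differences between slides look more precise, and this fit cannot separate slide from group in TBI rats. The cause of the changes in these counts was not tested.

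Of 72 differences recomputed, 9 changed sign under at least 1 alternative, 5 of them of members, and 0 of those were called in either setting. Between MASM + TBI and TBI rats, with scaling to the 75th percentile Pck1 was 0.055, Creb1 -0.0014, Pc 0.074 and Fancc -0.021, Fancc was -0.0072 with normexp and -0.0022 with slide as a random block, and with the replicate block Pck1 was 0.056 and Mcm7 0.014. Between MASM + TBI and control rats, G6pc1 was 0.21 with the replicate block, which leaves out rat 4, and 0.30 with slide as a fixed block. With 1 rat left out, Fbp1 lay between -0.11 and 0.026 in TBI against control rats, Ppargc1a between -0.28 and 0.039 and G6pc1 between -0.42 and 0.21 in MASM + TBI against control rats, and in MASM + TBI against TBI rats Pck1 lay between -0.15 and 0.10, Insr between -0.16 and 0.36, Creb1 between -0.0017 and 0.088, Fancc between -0.067 and 0.11 and Mcm7 between -0.081 and 0.069. Pklr was lower than control in all alternatives, called in 13 of 19 for TBI and 16 of 20 for MASM + TBI, and Gcgr was called in 7 of 19 for TBI. Replicate numbers did not pair the rats (r of deviations -0.13 to 0.17). The table of processed values was identical to the scanner values, so the planned run on it had nothing to compare.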
